A study of Mus musculus with 6 samples.

Results

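The genes described here are 34 genes of protein folding in the endoplasmic reticulum (ER) and of the unfolded protein response, taken as a named list. They comprise 15 chaperones and foldases, 4 genes of the sensing branches, 6 genes of ER-associated degradation, the transcription factor gene Atf4 and 8 targets of its protein. All 34 had enough counts to be tested, among 15454 genes tested and 25269 genes with a count. They were measured by poly(A) RNA sequencing of C2C12, an established mouse myoblast cell line, in 6 libraries that carried no genetic change and no drug. Myoblasts were harvested at Day 0 near confluency, and myotubes and reserve cells at Day 7 of differentiation in low serum (2 libraries each). Myotubes are the multinucleated cells formed by fusion, and reserve cells are the mononucleated cells that remain in the same kind of culture. The Day 7 populations were parted by mild trypsin, so neither group was sorted on a marker, and every library came from a single cell line. The submitters call the libraries biological replicates without saying whether they were separate cultures, so the p-values measure the spread between these libraries.

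Secreted and membrane proteins enter the ER unfolded and are folded there by chaperones, which bind exposed stretches, and by foldases, which make and rearrange disulfide bonds. When unfolded protein accumulates, the kinase encoded by Ern1 splices the Xbp1 mRNA, the protein of Atf6 is released from the ER membrane as a transcription factor, and the kinase encoded by Eif2ak3 slows translation while favouring that of Atf4 mRNA. The Xbp1 and Atf6 proteins act mainly on chaperone and degradation genes, whereas Atf4 acts on genes of amino acid supply and of the stress response. The study looked at ER stress beside myogenesis, and the comparison of these genes between the groups gives their mRNA levels without any added stressor. The libraries hold the start and the end of differentiation and no early time point.

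The elements through which these factors are known to act were located in the RefSeq promoters (GRCm38.p6, 250 bases before to 50 after each start). The aim was to describe which of the chaperone and Atf4 target genes hold them. The ER stress response element (ERSE) was searched as CCAAT and CCACG with 9 bases between them, its second form (ERSE-II) as ATTGG and CCACG with 1 base between them, the unfolded protein response element as TGACGTGG, and the C/EBP-ATF response element (CARE), which Atf4 dimers bind, as TGATGNAA, each on both strands. Promoters were given for 30 of the 34 genes, Hyou1, Manf, Atf6 and Derl1 being the others. ERSE was present in 0.119% of all 32851 promoters and ERSE-II in 0.0365%. Of the 13 chaperone genes with a promoter, 7 held ERSE and 1 held ERSE-II, and of the 5 degradation genes 2 held ERSE and 1 held ERSE-II. The windows are shown in the direction of the gene, 5′ to 3′, with the element in capitals and flanking bases in lower case. Capitals that begin with CGTGG and end with ATTGG show ERSE on the other strand.
Hspa5 ERSE, chr2:34772015-34772053, plus strand: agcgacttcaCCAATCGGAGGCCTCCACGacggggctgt
Hsp90b1 ERSE, chr10:86705628-86705666, minus strand: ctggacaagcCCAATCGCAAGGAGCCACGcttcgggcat
Hsp90b1 ERSE, chr10:86705523-86705561, minus strand: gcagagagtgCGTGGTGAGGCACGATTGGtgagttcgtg
Calr ERSE, chr8:84847065-84847103, minus strand: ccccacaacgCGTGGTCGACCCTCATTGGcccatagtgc
Canx ERSE, chr11:50325790-50325828, minus strand: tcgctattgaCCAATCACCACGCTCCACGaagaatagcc
Pdia6 ERSE, chr12:17266481-17266519, plus strand: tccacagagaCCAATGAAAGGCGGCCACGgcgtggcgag
Dnajb11 ERSE-II, chr16:22857844-22857870, plus strand: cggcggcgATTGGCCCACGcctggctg
Dnajc3 ERSE, chr14:118937817-118937855, plus strand: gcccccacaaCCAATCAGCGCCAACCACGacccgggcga
Creld2 ERSE, chr15:88819510-88819548, plus strand: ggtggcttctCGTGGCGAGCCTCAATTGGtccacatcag
Herpud1 ERSE-II, chr8:94386367-94386397, plus strand: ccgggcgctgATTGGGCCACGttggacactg
Derl3 ERSE, chr10:75893232-75893270, plus strand: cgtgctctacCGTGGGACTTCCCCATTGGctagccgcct
Syvn1 ERSE, chr19:6046522-6046560, plus strand: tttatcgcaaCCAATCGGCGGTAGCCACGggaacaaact

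CARE was present in 3.97% of all promoters and in 4 of the 8 Atf4 target genes, and in Herpud1 among the degradation genes. None of the 8 Atf4 target genes held ERSE or ERSE-II in these windows, and none of the 13 chaperone promoters held CARE. Capitals that begin with TT show CARE on the other strand. The unfolded protein response element was present in 0.676% of all promoters and in no gene of the list. A match to these letters is a description of the sequence and not evidence of binding. Elements with other letters or outside these windows were not searched.
Herpud1 CARE, chr8:94386307-94386334, plus strand: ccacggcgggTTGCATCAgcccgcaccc
Trib3 CARE, chr2:152344029-152344056, minus strand: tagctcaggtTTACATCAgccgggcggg
Atf3 CARE, chr1:191183426-191183453, minus strand: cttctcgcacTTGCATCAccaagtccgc
Chac1 CARE, chr2:119351039-119351066, plus strand: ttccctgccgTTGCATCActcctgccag
Asns CARE, chr6:7693215-7693242, minus strand: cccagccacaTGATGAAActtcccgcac

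The ERSE copies of the chaperone genes lay between positions −212 and −47 from the annotated start, and Hsp90b1 held 2 of them. In Herpud1 the ERSE-II lay at positions −52 to −42 and CARE at −112 to −105, so that this gene held both kinds of element.

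**Figure D1:**
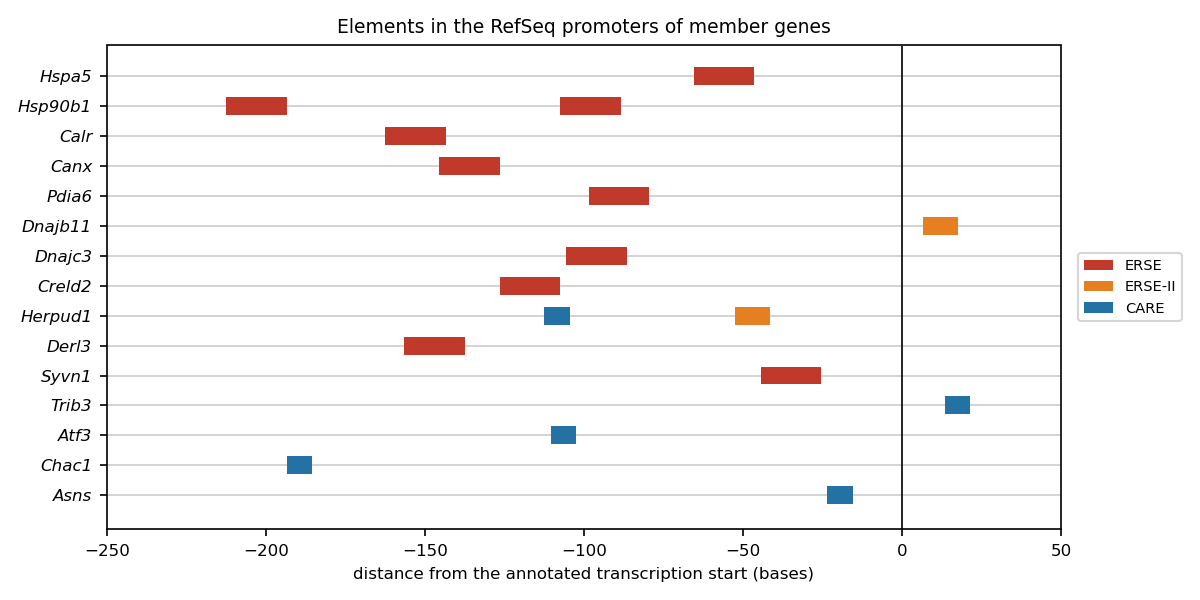
Position of each element relative to the annotated start (bases, 0 at the start) in the promoters of the 15 genes that held ERSE (red), ERSE-II (orange) or CARE (blue). ERSE lies on chaperone and degradation genes, CARE on Atf4 targets and Herpud1, and Herpud1 is the gene with both colours.

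The libraries held between 15658875 and 20055078 estimated counts. Levels are given as CPM, a gene's counts relative to the library's total, after scaling by TMM factors, which correct each library for a few very abundant transcripts. With library totals in place of these factors, the median log2 fold change over all genes moved to −0.27 between myotubes and myoblasts and to −0.21 between myotubes and reserve cells. All 6 myotube markers rose in myotubes, where their summed level was 25799 and 25416 CPM against 252 and 241 CPM in myoblasts. The reserve cell libraries also held 7077 and 7101 CPM of these markers, all 6 of them above myoblasts, and the part of myotube RNA in the reserve cell values was not tested. Of 5 markers of reserve cells, 4 were lower in myotubes than in reserve cells, but 3 were higher in reserve cells than in myoblasts, and Pax7 was at 61.3 and 65.5 CPM in reserve cells against 72.9 and 68.3 in myoblasts. Markers of cycling cells summed to 1782 and 1783 CPM in myoblasts, 127 and 138 in myotubes and 656 and 671 in reserve cells, all 5 lower in both Day 7 groups. Leukocyte markers summed to at most 3.92 CPM and endothelial markers to at most 1.21 CPM, with Ptprc, Adgre1 and Emcn at 0 in every library. In bulk RNA, fewer cells of a type and less RNA per cell cannot be told apart.

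Differences were tested with edgeR's quasi-likelihood test fitted to the 6 libraries together, with Benjamini-Hochberg adjustment across the 15454 genes and a threshold of 0.05, and log2 fold changes are given ± SE. Between myotubes and myoblasts, 28 of the 34 genes passed the test, 11 higher and 17 lower in myotubes. Over all genes 65.3% passed in this comparison, 32.7% in each direction. Between reserve cells and myoblasts, 15 were higher and 8 lower in reserve cells, where 46.2% of all genes passed (24.4% higher and 21.8% lower). Between myotubes and reserve cells, 8 were higher and 18 lower in myotubes, where 55.7% of all genes passed (27.2% higher and 28.5% lower). The 3 comparisons share libraries pairwise, so that their counts are not independent. The shares of all genes given here are also the background for each count by role or list below. The 11 higher in myotubes than in myoblasts became 7 with library totals. The 17 lower became 15 with DESeq2, and fewer than 17 when any single myoblast or myotube library was left out. The 8 lower in reserve cells than in myoblasts became 5 without the low-count filter and 4 without either myoblast or either reserve cell library. The 8 higher in myotubes than in reserve cells became 2 with library totals, 5 without the filter and 4 without the first myotube library or either reserve cell library. The 34 genes did not move as a unit, and each role is therefore described separately.

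**Figure D2:**
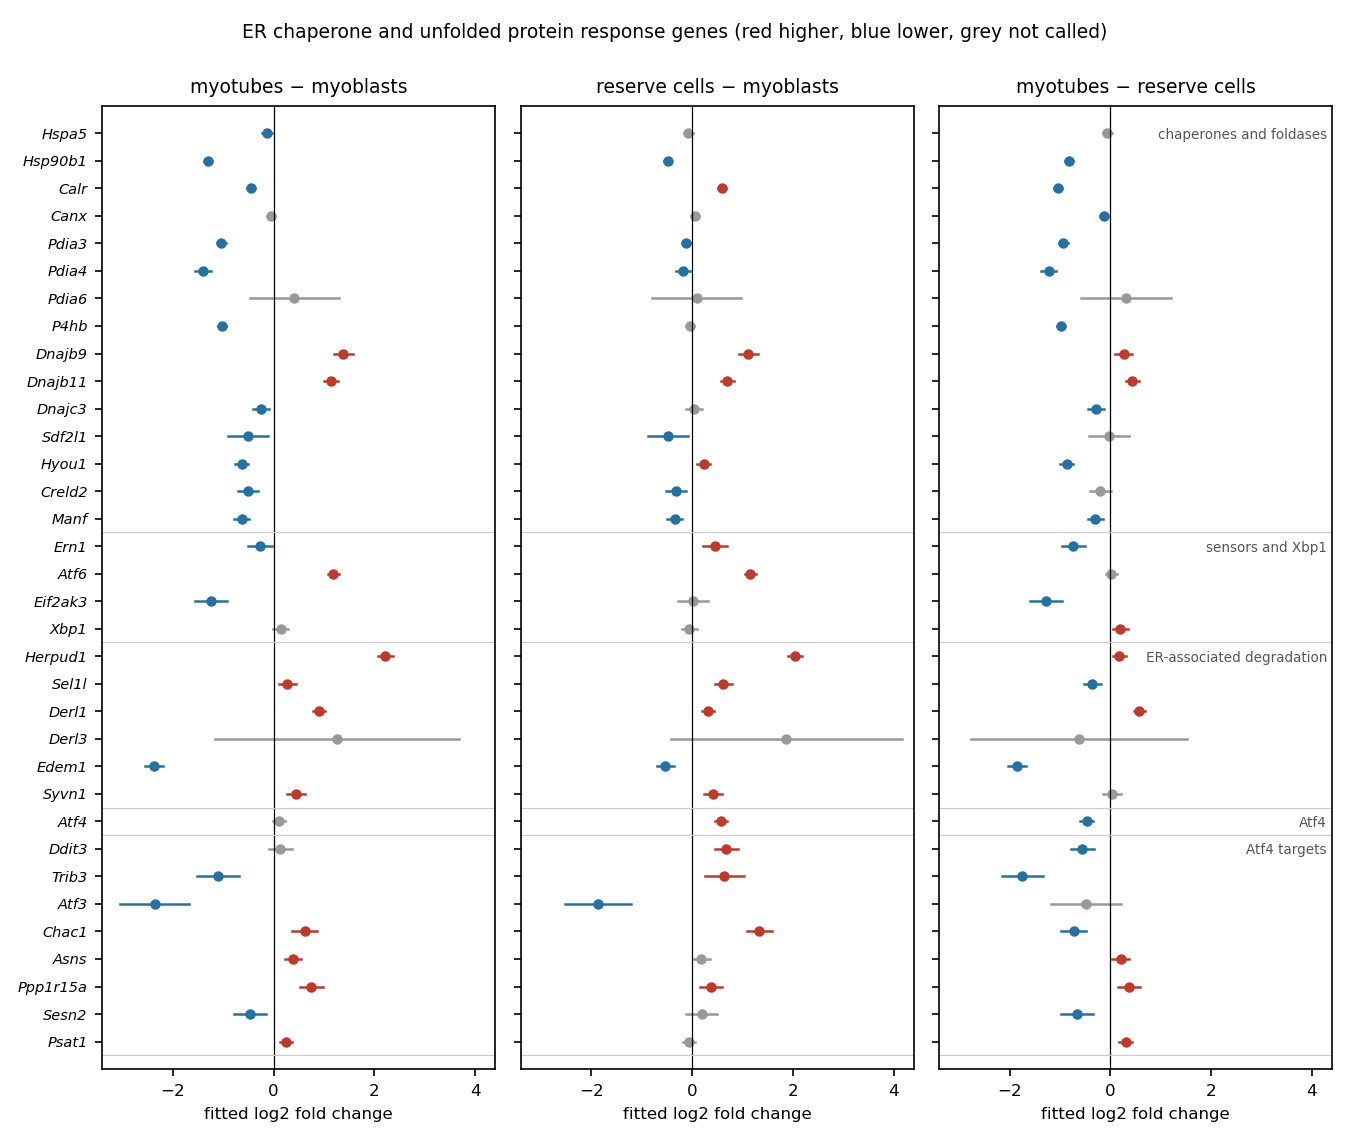
Fitted log2 fold change (point) with its 95% interval (line) for each of the 34 genes in the 3 comparisons, ordered by role. Red genes passed edgeR's test as higher, blue as lower, and grey did not pass. Most chaperones sit left of 0 in myotubes against myoblasts, most degradation genes sit right of 0, and Atf4 targets lie on both sides.

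Among chaperones and foldases, 11 of 15 were lower in myotubes than in myoblasts, 2 were higher and 2 did not pass, against 32.7% of all genes in each direction. Their median log2 fold change was −0.51, where that of all genes tested was 0.00. In reserve cells 4 were higher and 6 lower than in myoblasts (median −0.04, all genes 0.01), and between myotubes and reserve cells 2 were higher and 9 lower in myotubes (median −0.29, all genes −0.01). Summed per length, as TMM-scaled CPM per kilobase of transcript, the 15 genes were at 1872 and 1914 in myoblasts, 1282 and 1321 in myotubes and 1979 and 1980 in reserve cells. The myotube libraries were thus the lowest pair, and the reserve cell libraries lay just above the myoblast libraries without overlap. Calr rose from a mean of 350 CPM per kilobase in myoblasts to 529 in reserve cells, by more than the gap between these sums. The sum therefore does not stand for a rise of the 15 genes together in reserve cells. Matrix markers, among them Fn1 and Col1a1, followed the order of these sums, with Fn1 holding most of the matrix total. The markers summed to 10675 and 10672 CPM in myoblasts, 3713 and 3880 in myotubes and 19371 and 19786 in reserve cells. By mean CPM, only Calr, Canx, Dnajc3 and Hyou1 of the 15 chaperone genes had this order. Hspa5, Hsp90b1, Pdia3, Pdia4, P4hb, Sdf2l1, Creld2 and Manf were highest in myoblasts, and Pdia6, Dnajb9 and Dnajb11 in myotubes. The part of the matrix markers in the chaperone values was not tested.

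Hspa5 (chr2:34771970-34777547, plus strand, GRCm38, as all gene positions here) encodes BiP, the Hsp70 of the ER, which holds the 3 sensors inactive. Its level was 632 and 652 CPM in myoblasts, 570 and 602 in myotubes and 618 and 606 in reserve cells. The groups did not overlap, but they lay within a narrow range. Hspa5 was lower in myotubes than in myoblasts by a log2 fold change of −0.13 ± 0.039 (adjusted p = 0.018), a call that was lost when the second myoblast library or the first myotube library was left out. Reserve cells differed from myoblasts by −0.07 (95% interval −0.16 to 0.02), which did not pass.

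Hsp90b1 (chr10:86690209-86705509, minus strand) encodes the Hsp90 of the ER. It was at 1065 and 1067 CPM in myoblasts, 439 and 423 in myotubes and 761 and 764 in reserve cells. Replicates lay close together and the 3 groups were well apart, with myotubes lowest. Hsp90b1 was 2.47-fold lower in myotubes than in myoblasts (log2 fold change −1.31 ± 0.034, adjusted p = 7.6e-09) and 1.40-fold lower in reserve cells (−0.48 ± 0.033, adjusted p = 7.3e-06). Both Hspa5 and Hsp90b1 hold ERSE in the windows above, and their changes differed in size.

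Calr (chr8:84841850-84846934, minus strand) and Canx (chr11:50293961-50325673, minus strand) encode calreticulin and calnexin, the lectin chaperones that hold newly made glycoproteins. Calr was at 773 and 749 CPM in myoblasts, 550 and 571 in myotubes and 1152 and 1155 in reserve cells. Reserve cells were highest and myotubes lowest, with no overlap. Calr was 1.36-fold lower in myotubes than in myoblasts (−0.44 ± 0.034, adjusted p = 6.7e-06), 1.52-fold higher in reserve cells than in myoblasts (0.60 ± 0.034, adjusted p = 2.4e-06) and 2.06-fold lower in myotubes than in reserve cells (−1.04 ± 0.035, adjusted p = 9.0e-08). Per length, the mean levels of Calr in myoblasts, myotubes and reserve cells were 350, 258 and 529 CPM per kilobase, and those of Hsp90b1 were 378, 159 and 282. Calr thus had the highest mean of the 34 genes in both Day 7 groups, and Hsp90b1 in myoblasts. Canx lay between 501 and 557 CPM in every library, and neither Day 7 group passed the test against myoblasts (log2 fold changes −0.06 and 0.07, the latter −0.0032 with library totals). It was slightly lower in myotubes than in reserve cells (−0.13 ± 0.034, adjusted p = 0.012), a call lost with DESeq2's scaling factors in edgeR.

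The protein disulfide isomerases fell together in myotubes, with an exception. Pdia3, the partner of calreticulin and calnexin, was at 529 and 544 CPM in myoblasts, 258 and 264 in myotubes and 490 and 505 in reserve cells. P4hb, which also serves as a subunit of the collagen prolyl hydroxylase, was at 790 and 806 CPM in myoblasts, 394 and 393 in myotubes and 785 and 763 in reserve cells. Pdia4 was at 132 and 140 CPM in myoblasts, 50.3 and 52.5 in myotubes and 119 and 121 in reserve cells. For each of these genes the myotube libraries were far below the other 4, while the reserve cell libraries lay close to the myoblast libraries. The log2 fold changes between myotubes and myoblasts were −1.04 ± 0.039 for Pdia3, −1.02 ± 0.034 for P4hb and −1.40 ± 0.066 for Pdia4 (adjusted p = 7.2e-08, 3.5e-08 and 2.7e-07). In reserve cells P4hb did not pass (−0.04), and Pdia3 and Pdia4 passed narrowly (−0.11, adjusted p = 0.048, and −0.18, adjusted p = 0.047), calls that leaving out either myoblast or either reserve cell library ended. Pdia6 was at 47.6 and 135 CPM in the myoblast libraries, 123 and 120 in myotubes and 113 and 82.6 in reserve cells. Its myoblast replicates lay on either side of all the other libraries and it passed in no comparison. Without the first myoblast library its log2 fold change between myotubes and myoblasts was −0.16, and without the second it was 1.34 and passed, so its direction rests on which of these libraries is used.

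The J-domain cochaperones of BiP moved in different directions. Dnajb9 (chr12:44205559-44210326, minus strand), whose protein also brings BiP back to the Ern1 sensor, was at 20.8 and 21.3 CPM in myoblasts, 54.8 and 55.1 in myotubes and 47.8 and 43.7 in reserve cells. Dnajb11, which feeds unfolded proteins to BiP, was at 79.2 and 75.6 CPM in myoblasts, 171 and 170 in myotubes and 124 and 127 in reserve cells. Both genes were lowest in myoblasts and highest in myotubes. Dnajb9 was 2.61-fold higher in myotubes than in myoblasts (1.39 ± 0.079, adjusted p = 8.9e-07) and 2.18-fold higher in reserve cells (1.12 ± 0.078, adjusted p = 8.5e-06). Dnajb11 was 2.20-fold higher in myotubes (1.14 ± 0.057, adjusted p = 4.0e-07) and 1.62-fold higher in reserve cells (0.70 ± 0.057, adjusted p = 2.1e-05). Of the 13 chaperone promoters, that of Dnajb11 was the one with ERSE-II. Dnajc3, whose protein also restrains the Eif2ak3 kinase, was at 97.8 and 104 CPM in myoblasts, 83.2 and 86.7 in myotubes and 100 and 107 in reserve cells. It was lower in myotubes than in myoblasts by −0.25 ± 0.071 (adjusted p = 0.014), which was lost without the second myoblast or the first myotube library, and its reserve cell and myoblast values overlapped.

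The remaining chaperone genes were lower in myotubes by smaller amounts. Hyou1, the nucleotide exchange factor of BiP, was at 145 and 154 CPM in myoblasts, 96.6 and 95.6 in myotubes and 173 and 177 in reserve cells. Reserve cells were highest and myotubes lowest, the order also seen for Calr. Hyou1 was 1.55-fold lower in myotubes (−0.64 ± 0.056, adjusted p = 1.5e-05) and 1.17-fold higher in reserve cells than in myoblasts (0.23 ± 0.055, adjusted p = 0.0094), the latter lost without the first myoblast or the second reserve cell library. Manf, a secreted binding partner of BiP, was at 108 and 109 CPM in myoblasts, 71.5 and 68.4 in myotubes and 86.9 and 84.6 in reserve cells. It was lower than in myoblasts by −0.64 ± 0.067 in myotubes and −0.34 ± 0.066 in reserve cells (adjusted p = 4.3e-05 and 0.0031). Creld2 was at 40.0 and 39.8 CPM in myoblasts, 29.7 and 26.3 in myotubes and 31.2 and 32.9 in reserve cells, and was lower in myotubes (−0.51 ± 0.088, adjusted p = 0.00094) and in reserve cells (−0.32 ± 0.086, adjusted p = 0.017, lost without either library of either group). Sdf2l1, a partner of Dnajb11, was at 13.0 and 14.3 CPM in myoblasts, 10.1 and 9.07 in myotubes and 8.83 and 10.7 in reserve cells. Its Day 7 groups overlapped, and its calls against myoblasts (adjusted p = 0.030 in myotubes and 0.0495 in reserve cells) were both lost with DESeq2.

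**Figure D3:**
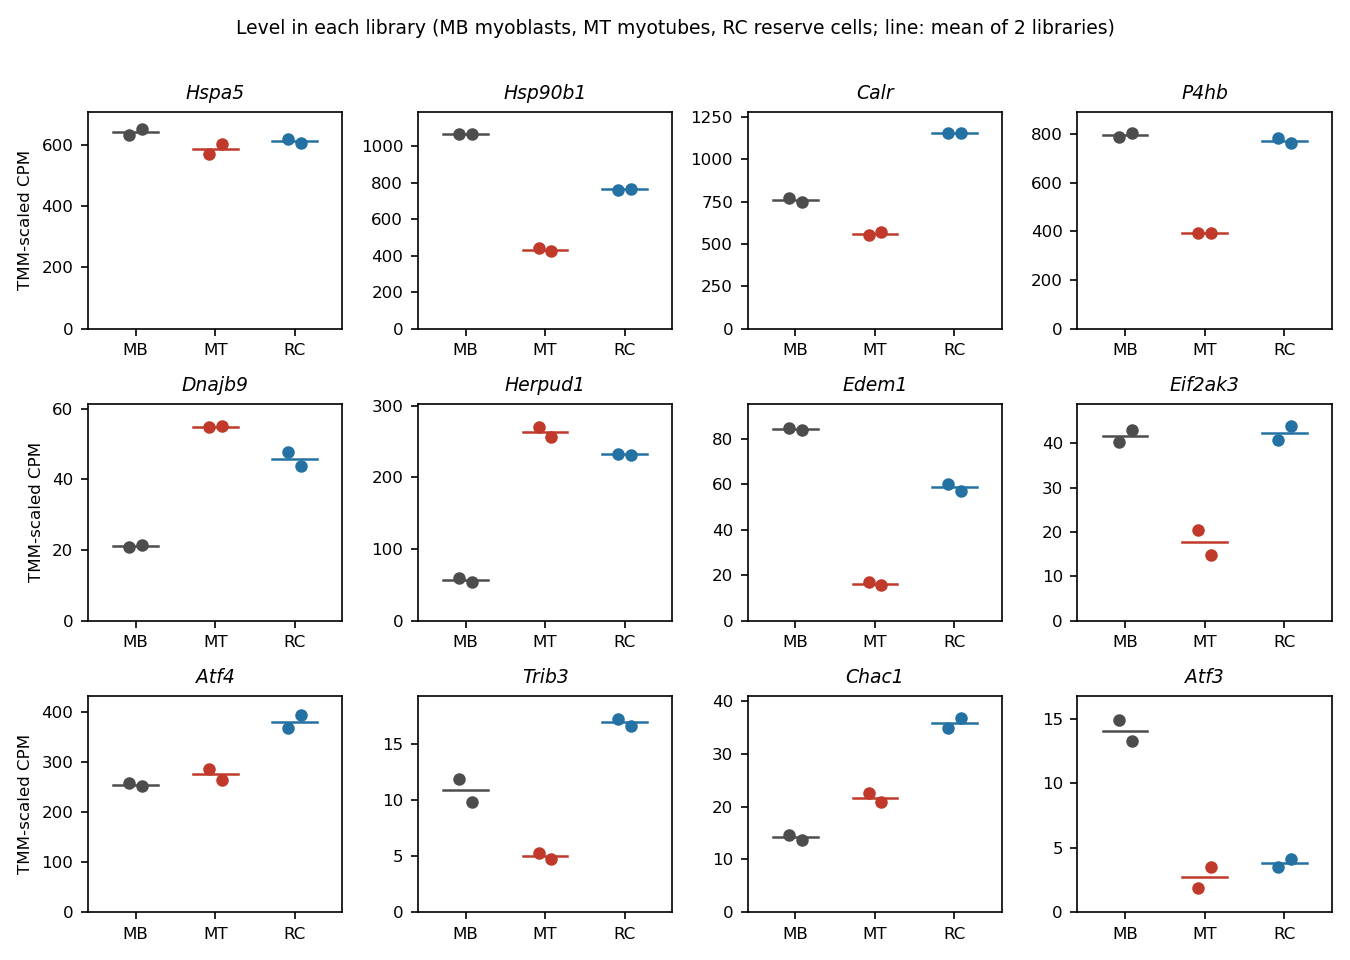
TMM-scaled CPM of 12 of the genes in each library (point) with the group mean (line) for myoblasts (MB), myotubes (MT) and reserve cells (RC), 2 libraries each, every axis starting at 0. Hsp90b1, P4hb and Edem1 are lowest in myotubes, Dnajb9 and Herpud1 are lowest in myoblasts, and Calr, Atf4, Trib3 and Chac1 are highest in reserve cells.

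Of the sensing genes, 1 was higher and 2 were lower in myotubes than in myoblasts, and 2 were higher and none lower in reserve cells, where 32.7% of all genes were called in each direction in the first comparison and 24.4% higher and 21.8% lower in the second. Atf6 (chr1:170704674-170867771, minus strand) was at 120 and 124 CPM in myoblasts, 271 and 283 in myotubes and 270 and 275 in reserve cells. Its Day 7 groups overlapped each other and lay above myoblasts, 2.27-fold in myotubes (1.18 ± 0.048, adjusted p = 1.1e-07) and 2.24-fold in reserve cells (1.16 ± 0.048, adjusted p = 3.5e-07). Between the Day 7 groups Atf6 differed by 0.02, which became −0.18 with library totals and passed (adjusted p = 0.0083). Eif2ak3 (chr6:70844515-70905245, plus strand) was at 40.3 and 43.1 CPM in myoblasts, 20.4 and 14.9 in myotubes and 40.8 and 43.9 in reserve cells. Myoblasts and reserve cells overlapped, and myotubes were 2.37-fold below myoblasts (−1.25 ± 0.137, adjusted p = 6.0e-05).

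Ern1 was at 39.4 and 43.9 CPM in myoblasts, 32.9 and 35.8 in myotubes and 52.3 and 61.8 in reserve cells. The groups did not overlap, with reserve cells highest. Ern1 was 1.66-fold lower in myotubes than in reserve cells (−0.73 ± 0.103, adjusted p = 0.00041) and 1.37-fold higher in reserve cells than in myoblasts (0.45 ± 0.101, adjusted p = 0.0066), the latter call lost without the first myoblast or the second reserve cell library. Its lower level in myotubes than in myoblasts was smaller (−0.28 ± 0.104, adjusted p = 0.044) and was lost with DESeq2, with its scaling factors in edgeR, and without the second myoblast library or either myotube library. Xbp1 was at 116 and 109 CPM in myoblasts, 128 and 120 in myotubes and 110 and 106 in reserve cells. Neither Day 7 group passed against myoblasts, the myotube value turning to −0.13 with library totals, and the difference between myotubes and reserve cells (0.20 ± 0.064, adjusted p = 0.029) was gone with library totals, without the low-count filter, and without the second myoblast library, the first myotube library or either reserve cell library. Splicing of Xbp1 by the Ern1 protein, the activating step, was not measured by these counts per gene.

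In myotubes against myoblasts, the degradation genes held the largest rise of the 34, that of Herpud1, and in Edem1 a fall close in size to that of Atf3. There 4 of 6 were higher and 1 lower (median 0.67), against 32.7% of all genes in each direction. In reserve cells 4 were higher and 1 lower (median 0.52), against 24.4% and 21.8% of all genes. Summed per length they were at 122 and 122 CPM per kilobase in myoblasts, 266 and 265 in myotubes and 231 and 236 in reserve cells, so that both Day 7 groups lay well above myoblasts. Herpud1 alone made up most of that rise, going from a mean of 29.5 CPM per kilobase in myoblasts to 137 in myotubes and to 121 in reserve cells. Herpud1 (chr8:94386438-94395377, plus strand), a membrane protein that gathers the degradation complex, was at 59.2 and 54.0 CPM in myoblasts, 270 and 256 in myotubes and 233 and 231 in reserve cells. Its levels in the Day 7 libraries were all far above those of myoblasts. Herpud1 was 4.65-fold higher in myotubes (2.22 ± 0.062, adjusted p = 1.2e-08) and 4.11-fold higher in reserve cells (2.04 ± 0.061, adjusted p = 5.2e-08). The small difference between the Day 7 groups (0.18, adjusted p = 0.029) turned to −0.03 with library totals and was lost without the low-count filter, the first myotube library or either reserve cell library.

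Edem1 (chr6:108828641-108859356, plus strand), which recognises glycoproteins whose mannose has been trimmed and passes them to degradation, was at 84.9 and 83.8 CPM in myoblasts, 16.8 and 15.8 in myotubes and 60.2 and 56.9 in reserve cells. It was the degradation gene with the opposite order to Herpud1. Edem1 was 5.19-fold lower in myotubes than in myoblasts (−2.37 ± 0.078, adjusted p = 3.0e-08), 1.44-fold lower in reserve cells (−0.53 ± 0.070, adjusted p = 0.00040) and 3.60-fold lower in myotubes than in reserve cells (−1.85 ± 0.077, adjusted p = 3.2e-07). Part of the Edem1 counts was assigned to a transcript annotated for nonsense-mediated decay rather than as protein coding. That part was 40.3% and 37.3% in myoblasts, 30.1% and 0% in myotubes and 59.4% and 47.9% in reserve cells. The gene sums do not separate it from the coding transcript, and the split was uneven between replicates. Derl1, a channel protein of the complex, was at 137 and 137 CPM in myoblasts, 252 and 260 in myotubes and 167 and 176 in reserve cells. It was higher in myotubes by 0.90 ± 0.050 (adjusted p = 7.8e-07) and in reserve cells by 0.32 ± 0.050 (adjusted p = 0.00097).

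Sel1l and Syvn1 encode the adaptor and the ubiquitin ligase of the complex. Sel1l was at 106 and 113 CPM in myoblasts, 127 and 136 in myotubes and 159 and 177 in reserve cells, with no overlap and reserve cells highest. It was higher in reserve cells than in myoblasts by 0.62 ± 0.073 (adjusted p = 0.00019), whereas its rise in myotubes (0.27 ± 0.073, adjusted p = 0.012) turned to −0.01 with library totals and was lost without the first myoblast or the second myotube library. Syvn1 was at 46.7 and 48.2 CPM in myoblasts, 61.9 and 67.2 in myotubes and 61.2 and 65.7 in reserve cells. Its Day 7 groups overlapped and exceeded myoblasts by 0.44 ± 0.078 and 0.42 ± 0.077 (adjusted p = 0.0011 and 0.0025), although the myotube call was lost with library totals. Derl3 had 0 and 8 estimated counts in myoblasts, 7 and 8 in myotubes and 12 and 17 in reserve cells. No comparison of Derl3 passed over the 6 libraries. Without the second myoblast library both Day 7 groups passed against myoblasts, calls that rest on a single myoblast library at 0 counts.

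**Figure D4:**
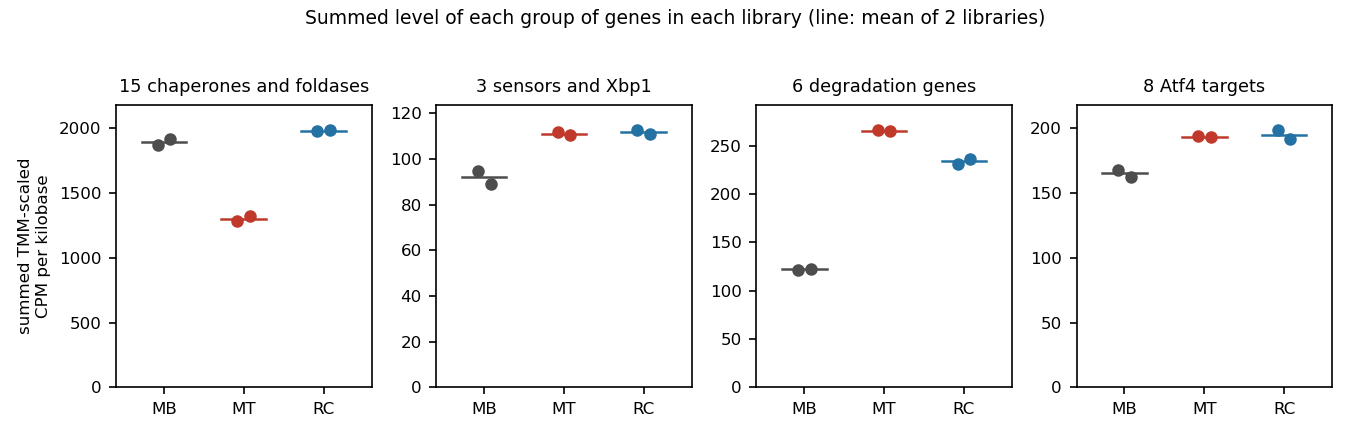
Summed level of each role in each library (point), in TMM-scaled CPM per kilobase of transcript, with the group mean (line) for myoblasts (MB), myotubes (MT) and reserve cells (RC). Chaperones are lowest in myotubes (1282 and 1321), degradation genes are lowest in myoblasts (122 and 122), and Atf4 targets span 162 to 198 over all libraries.

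Atf4 mRNA (chr15:80255184-80257541, plus strand) was at 258 and 251 CPM in myoblasts, 286 and 264 in myotubes and 368 and 393 in reserve cells. Reserve cells were highest, and the other groups lay close together. Atf4 was 1.49-fold higher in reserve cells than in myoblasts (0.58 ± 0.054, adjusted p = 5.1e-05) and 1.38-fold lower in myotubes than in reserve cells (−0.47 ± 0.054, adjusted p = 0.00012). Myotubes did not pass against myoblasts (0.11, 95% interval −0.02 to 0.23), and with library totals the value was −0.17 and passed (adjusted p = 0.027). Atf4 is regulated mainly in its translation, which mRNA counts do not show.

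Of the 8 Atf4 targets, 4 were higher and 3 lower in myotubes than in myoblasts (median 0.19), 4 were higher and 1 lower in reserve cells (median 0.28), and 3 were higher and 4 lower in myotubes than in reserve cells (median −0.52). Over all genes tested the shares called higher and lower were 32.7% and 32.7%, 24.4% and 21.8%, and 27.2% and 28.5% in these comparisons, and the medians were 0.00, 0.01 and −0.01. Summed per length the targets were at 168 and 162 CPM per kilobase in myoblasts, 194 and 193 in myotubes and 198 and 191 in reserve cells, and Psat1 held the largest share of these sums. The median of the chaperones less that of the targets was −0.70 in myotubes against myoblasts, −0.33 in reserve cells against myoblasts and 0.23 in myotubes against reserve cells (0.077 without the first myotube library). Medians fall on different genes in each comparison, so these values need not add up. The difference of medians was also taken within each library, from log2 of CPM plus 1. It was 2.75 and 2.75 in myoblasts, 2.42 and 2.46 in myotubes and 2.00 and 2.00 in reserve cells. Reserve cells were thus lowest, whereas the fold changes against myoblasts put myotubes lowest. The order of the Day 7 groups in this contrast therefore depends on the measure. These differences are descriptions of the lists and were given no test.

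Chac1 (chr2:119351229-119354381, plus strand), an enzyme that breaks down glutathione, was at 14.6 and 13.7 CPM in myoblasts, 22.5 and 20.9 in myotubes and 34.9 and 36.8 in reserve cells. Ddit3, which encodes the pro-apoptotic factor CHOP, was at 19.96 and 19.4 CPM in myoblasts, 22.0 and 21.1 in myotubes and 31.9 and 31.4 in reserve cells. For both genes the reserve cell libraries were the highest. Chac1 was 2.53-fold higher in reserve cells than in myoblasts (1.34 ± 0.108, adjusted p = 2.0e-05) and 1.53-fold higher in myotubes (0.61 ± 0.109, adjusted p = 0.0012). Ddit3 was 1.61-fold higher in reserve cells (0.68 ± 0.098, adjusted p = 0.00063) and did not pass in myotubes (0.13, adjusted p = 0.28, and −0.15 with library totals). The symbol Ddit3 joins 2 overlapping gene models and lies opposite Mars, a tRNA synthetase gene, so its counts are uncertain where reads could not be assigned to a strand.

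Trib3 (chr2:152337422-152344032, minus strand), a pseudokinase that restrains Atf4 signalling, was at 11.8 and 9.87 CPM in myoblasts, 5.33 and 4.77 in myotubes and 17.2 and 16.6 in reserve cells. Reserve cells were highest and myotubes lowest, without overlap. Trib3 was 3.35-fold lower in myotubes than in reserve cells (−1.74 ± 0.177, adjusted p = 5.6e-05) and 2.15-fold lower than in myoblasts (−1.10 ± 0.178, adjusted p = 0.00064). Its excess in reserve cells over myoblasts (0.64 ± 0.166, adjusted p = 0.013) was lost without the second myoblast library or either reserve cell library. Atf3, an early stress factor, was at 14.9 and 13.2 CPM in myoblasts, 1.92 and 3.49 in myotubes and 3.53 and 4.14 in reserve cells. Myoblasts were far above the others, 5.13-fold over myotubes (−2.36 ± 0.297, adjusted p = 0.00014) and 3.66-fold over reserve cells (−1.87 ± 0.285, adjusted p = 0.00087). The myotube value rests on 27 and 60 estimated counts.

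Asns and Psat1 act in amino acid supply. Asns, which makes asparagine, was at 55.4 and 55.5 CPM in myoblasts, 74.7 and 70.3 in myotubes and 64.4 and 61.5 in reserve cells. Psat1, of the serine pathway, was at 205 and 196 CPM in myoblasts, 235 and 241 in myotubes and 200 and 186 in reserve cells. Myotubes were highest for both. Asns and Psat1 were higher in myotubes than in myoblasts by 0.39 ± 0.072 and 0.25 ± 0.054 (adjusted p = 0.0015 and 0.0034), calls that library totals ended, with Psat1 turning to −0.03. Neither passed in reserve cells against myoblasts (0.18 and −0.06).

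Ppp1r15a, a phosphatase subunit that restores translation after stress, was at 21.7 and 23.8 CPM in myoblasts, 37.0 and 39.5 in myotubes and 28.4 and 30.8 in reserve cells, with no overlap. It was higher than in myoblasts by 0.75 ± 0.095 in myotubes (adjusted p = 0.00015) and by 0.38 ± 0.095 in reserve cells (adjusted p = 0.012, lost without the first myoblast or the second reserve cell library). Sesn2, a leucine sensor of stressed cells, was at 17.8 and 20.3 CPM in myoblasts, 14.4 and 13.1 in myotubes and 23.0 and 20.5 in reserve cells. It was lower in myotubes than in reserve cells by −0.66 ± 0.137 (adjusted p = 0.0036), and its fall against myoblasts (−0.47, adjusted p = 0.016) was lost without the second library of either group. The 4 targets with CARE in the promoter did not share a direction, since in myotubes against myoblasts Trib3 and Atf3 fell and Chac1 and Asns rose.

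The other genes of the same pathways were counted from longer lists, to be read against 32.7% of all genes in each direction in myotubes and 24.4% higher and 21.8% lower in reserve cells. Of 20 further folding genes, 17 were lower and 1 higher in myotubes than in myoblasts (median −0.92), and 9 were lower and 2 higher in reserve cells (median −0.18). Those with the smallest adjusted p in myotubes were Txndc5, a disulfide isomerase that went from a mean of 413 to 111 CPM (−1.89 ± 0.051), Fkbp10, a collagen foldase (−2.25 ± 0.082), and Ganab, the glucosidase that trims new glycoproteins (−1.44 ± 0.057). In reserve cells against myoblasts they were Txndc5 (−0.39 ± 0.049), Sil1 (0.78 ± 0.112) and Fkbp10 (−0.47 ± 0.077). Of 20 genes of translocation into the ER and of glycan transfer, 12 were lower and 6 higher in myotubes (median −0.27), led by the channel genes Sec61a1 (−1.57 ± 0.059) and Sec61b (−2.08 ± 0.108) and by Ddost (−0.95 ± 0.058). In reserve cells 8 of these were lower and 5 higher (median −0.10).

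Further degradation genes went the other way. Of 17, 11 were higher and 4 lower in myotubes than in myoblasts (median 0.60), led by the ubiquitin conjugating enzyme gene Ube2g2, which went from a mean of 81.0 to 308 CPM (1.93 ± 0.076), Ubxn4 (1.19 ± 0.052) and Edem3 (1.30 ± 0.057). In reserve cells 9 were higher and 2 lower (median 0.27). Edem3 rose in myotubes and Edem1 fell, although both act on the mannose of misfolded glycoproteins. Of 14 further sensing genes 13 were tested, and 4 were higher and 8 lower in myotubes, among them Wfs1 (1.95 ± 0.072), Creb3l1 (−1.63 ± 0.070) and Mbtps1, the protease that cleaves the Atf6 protein (−1.14 ± 0.056). Of 30 further Atf4 targets, 13 were higher and 10 lower in myotubes (median 0.08) and 12 were higher and 5 lower in reserve cells (median 0.16). They included Gpt2, an amino acid transaminase that rose in both Day 7 groups (1.63 ± 0.056 in myotubes and 1.14 ± 0.056 in reserve cells), Gdf15, a stress cytokine that fell in myotubes (−3.57 ± 0.238), and Nupr1, which rose in reserve cells (1.83 ± 0.105). Mean levels in myoblasts, myotubes and reserve cells were 29.4, 2.49 and 5.27 CPM for Gdf15 and 19.4, 34.2 and 68.7 CPM for Nupr1. Neither mean was thus shifted in 1 Day 7 group alone.

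Genes with ERSE in the promoter were also counted over the whole annotation, as a description with the same shares of all genes as background. Of 37 such genes 20 were tested, and 4 were higher and 10 lower in myotubes than in myoblasts (median −0.15). The 11 that are not on the list held 3 higher and 5 lower genes (median −0.17). In reserve cells 5 of the 20 were higher and 4 lower (median 0.19). Among the 7 chaperone genes with ERSE, 5 were lower in myotubes than in myoblasts and Canx and Pdia6 did not pass, with log2 fold changes from −1.31 for Hsp90b1 to 0.41 for Pdia6. Pdia3, Pdia4 and P4hb, which fell in myotubes by over 1 on the log2 scale, held none of the 4 searched elements in their windows.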

How the data were processed

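Poly(A) RNA of C2C12 cells was sequenced by the authors, mapped to mm10 with HISAT2, filtered with SAMtools and quantified with StringTie, and the deposited estimated counts per transcript are whole numbers, one file per library. Program versions and their annotation were not given in the sources used here. The deposited series table of the same libraries was not used. Transcripts (141374 of 142604) were paired with gene symbols through GENCODE M21 and summed. Estimated counts cannot always be divided between overlapping genes, and the split between transcripts of a gene was unstable. Levels per kilobase divide each transcript's count by its length before summing, on the same TMM scale. edgeR 4.0.16 in R 4.3.3 was run with filterByExpr (minimum count 10), TMM factors, glmQLFit and glmQLFTest on group alone over all 6 libraries, and was tested on simulated data. Alternatives were DESeq2 1.42.0, RLE factors, library totals, no low-count filter, the 4 libraries compared, a replicate block and leaving out each library. Replicates differed by more than sampling noise (chi-square per degree of freedom 6.53 to 8.28). All 34 genes are named, and of other lists the 3 genes with the smallest adjusted p in a comparison are candidates for naming, of which a degradation gene is not reported here. Members and lists were chosen with earlier results of these data known. The labels of the series give 7 days of differentiation, whereas the culture methods of the study give a shorter time.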

Additional observations from a re-analysis of the deposited data

Results flagged for a closer look

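Genes were picked out where reserve cells passed as higher and myotubes as lower than myoblasts, or the reverse. A passed test between the Day 7 groups was part of that choice and largely follows from the other calls. The rule picked 4 of the 34 genes, all with reserve cells higher. The share of all genes with this pattern was not counted, so the number has no background. The log2 fold change of myotubes against reserve cells was −1.04 for Calr, −0.87 for Hyou1, −0.73 for Ern1 and −1.74 for Trib3. Of these, the fall of Ern1 in myotubes and the rise of Hyou1, Ern1 and Trib3 in reserve cells were each lost when a library named above beside each value was left out, whereas both Calr calls held in every alternative. The choice of these genes by their calls already places their reserve cell levels outside the range between myoblasts and myotubes.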

How the results depend on the processing

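Of the called differences, 19 of 28 between myotubes and myoblasts, 15 of 23 between reserve cells and myoblasts and 18 of 26 between myotubes and reserve cells kept direction and call in every alternative. Over all genes of the list and alternatives, 1109 values kept both, 76 lost the call, 11 gained it and 27 changed sign. These totals include fits that left out a library of the group not compared. Such fits keep every library of the comparison, so little could change in them and they raise the number of values kept. With library totals, 7 genes were higher in myotubes than in myoblasts and 2 higher in myotubes than in reserve cells. Values that changed sign with library totals were Xbp1 −0.13, Sel1l −0.012, Atf4 −0.17, Ddit3 −0.15 and Psat1 −0.030 (myotubes against myoblasts), Canx −0.0032, Dnajc3 −0.033 and Eif2ak3 −0.050 (reserve cells against myoblasts) and Atf6 −0.18 (adjusted p = 0.0083), Xbp1 −0.0075, Herpud1 −0.027, Syvn1 −0.18 and Asns −0.0031 (myotubes against reserve cells). Sdf2l1 in the last comparison turned to 0.0093 with RLE factors and 0.0088 with DESeq2. Without the low-count filter, 5 genes were lower in reserve cells than in myoblasts and 5 higher in myotubes than in reserve cells.

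Leaving out 1 library at a time, where a group of 1 is assumed to vary like the others, gave 4 to 8 genes lower in reserve cells than in myoblasts and 4 to 8 higher in myotubes than in reserve cells. The chaperone median less the Atf4 target median then ranged from −0.77 to −0.63, from −0.40 to −0.32 and from 0.077 to 0.29 in the 3 comparisons. Over the same omissions, genes whose sign changed ranged from −0.16 to 1.34 for Pdia6 between myotubes and myoblasts, and between reserve cells and myoblasts from −0.47 to 1.04 for Pdia6 (also −0.15 without the first reserve cell library), −0.011 to 0.085 for Dnajc3 (also −0.0088) and −0.031 to 0.072 for Eif2ak3 (also −0.029). Between myotubes and reserve cells the range was −0.17 to 0.11 for Sdf2l1 (also 0.041), −0.017 to 0.057 for Atf6 and −0.041 to 0.085 for Syvn1 (also −0.032). The cause was not tested.

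Same-numbered libraries did not deviate together (r across genes 0.02, 0.06 and −0.04), so the numbers were not taken as pairs. With the replicate number as a block, 11 genes were higher and 17 lower in myotubes than in myoblasts, 15 and 7 in reserve cells, and 8 and 18 in myotubes against reserve cells, with median differences of −0.70, −0.33 and 0.24. The call that the block ended was Sdf2l1 in reserve cells. With 2 libraries a group, small differences such as those of Hspa5 and Canx are at the limit of these data.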

Other observations

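Genes of collagen maturation, the processing of procollagen in the ER, were counted as a related list of 14. This list is not separate from the further folding genes above, since Fkbp10 is on both. Between myotubes and reserve cells none was higher and 11 were lower in myotubes (median −0.80), with Plod2 (−1.69 ± 0.060), Crtap (−1.81 ± 0.072) and Fkbp10 (−1.78 ± 0.081) the most significant. In reserve cells 9 were higher and 2 lower than in myoblasts (median 0.42), among them P4ha1 (0.77 ± 0.063) and Colgalt1 (0.55 ± 0.060). In myotubes 4 were higher and 7 lower than in myoblasts (median −0.59). Over all genes the shares higher and lower in these comparisons were 27.2% and 28.5%, 24.4% and 21.8%, and 32.7% and 32.7%. The medians of all genes were −0.01, 0.01 and 0.00.

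Estimated counts were divided unevenly between transcripts of a gene. A transcript of Manf took 1.39% of its counts in a myotube library and 44.2% in the other, and a transcript of Hyou1 took 12.1% and 57.9% of its counts in the myoblast libraries. Gene sums of Manf and Hyou1 were close between the same libraries, so levels per kilobase depend on these splits more than the gene sums do.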
